A study of Mus musculus with 14 samples.

Results

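Skeletal muscle of newborn Celf1 knockout (KO) mice was set against skeletal muscle of wild-type (WT) mice, with 3 KO and 3 WT arrays, which are 6 of the 14 arrays of the series; the arrays were chosen by tissue and genotype as labelled, and the 8 brain arrays were not used. The KO mice came from BayGenomic embryonic stem cells that carry a trap vector inserted ahead of the AUG codon of Cugbp1, the older name of Celf1. The labels give C57BL6 as the background strain of both genotypes. All muscle was collected at 1 day of age from untreated mice. Whether KO animals carried the trap on both copies, which litters the animals came from and which muscle was taken are not stated in the sources used here. Each array held total RNA labelled with the dye Cy3. Nothing in the labels says whether the 3 samples of a genotype were single animals or pools. The p-values set the difference between genotypes against the spread between these samples, which may not be a spread between single animals.

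The product of Celf1, CUGBP1, binds GU-rich elements in transcripts. In the nucleus it acts on alternative splicing, and in the cytoplasm on deadenylation, decay and translation of mRNAs. In muscle it is best known from myotonic dystrophy type 1, where its level is raised and splicing of muscle transcripts shifts toward fetal forms. The arrays read the summed level of a gene's transcripts at each probe and do not read splice forms.

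Values are given as scaled intensities, which are the deposited intensities divided by the 75th percentile of the array's named probes and multiplied by a constant shared by the 6 arrays. A fold change is the difference of the mean log2 levels, KO minus WT, and carries its standard error (SE, n = 3 per genotype). The SE is the moderated one of limma, in which each gene's own spread is drawn toward the spread of all genes. The arrays bottomed out at intensities of 2.04 to 2.74, so fold changes of genes with values near these are not exact. In 21893 genes tested with limma, 0% passed an adjusted p (Benjamini-Hochberg) under 0.05; the smallest adjusted p was 0.215. An unadjusted p under 0.05 was reached by 341 genes, 1.56% of those tested. Of these, 195 were higher in KO (0.891%) and 146 were lower (0.667%). This is no excess, since a share of about 0.05 of genes would fall under that threshold if no gene differed. All genes named below are therefore given as values. The arrays of the genotypes stood fully apart, without overlap, in 864 of 21862 genes with values on every array, or 3.95%. Of these, 407 were higher in KO (1.86% of the 21862) and 457 lower in KO (2.09%). With 3 arrays per genotype, arrays also stand apart in some genes where genotype has no effect. The share of such genes was not estimated, so no count of separation here is a count of genes changed by genotype. With median scaling of the arrays instead, 290 genes were higher and 580 lower without overlap. The median log2 fold change of all genes was -0.027. Without any scaling every log2 fold change moves up by 0.16, and of 54 named genes that stood apart, 38 then still did. The 16 that then overlapped are Agbl2 among the higher genes and Ankrd23, Atp5b, Clock, Egln1, Eif4ebp1, Galk2, Gbe1, H19, Ino80, Klf1, Mapkapk3, Mfsd4b1, Pkm, Sorl1 and Tnni2 among the lower genes.

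Beside Celf1 itself, the genes with the clearest separation between genotypes were Rab6b, Ppp1r14d and Gchfr, all higher in KO muscle. Rab6b encodes a small GTPase of Golgi traffic that is best known from neurons. Ppp1r14d encodes an inhibitor of protein phosphatase 1. Gchfr encodes the feedback regulator of GTP cyclohydrolase, the first enzyme of tetrahydrobiopterin synthesis. The 250 bases ahead of their annotated starts are shown because these are the 3 named genes higher in KO with the smallest p, and each is written 5′ to 3′ on the strand of its gene, from RefSeq, build GRCm38.p6. They lie at chr9:103111824-103112073 (plus strand) for Rab6b, chr2:119229866-119230115 (minus strand) for Ppp1r14d and chr2:119167538-119167787 (plus strand) for Gchfr. Capitals mark E-boxes (CANNTG), the letters that myogenic and other helix-loop-helix factors recognise.
Rab6b: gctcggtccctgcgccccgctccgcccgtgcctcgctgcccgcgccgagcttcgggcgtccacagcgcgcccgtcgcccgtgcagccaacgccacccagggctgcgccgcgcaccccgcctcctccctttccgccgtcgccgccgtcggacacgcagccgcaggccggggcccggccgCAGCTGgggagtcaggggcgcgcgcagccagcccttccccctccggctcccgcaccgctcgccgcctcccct
Ppp1r14d: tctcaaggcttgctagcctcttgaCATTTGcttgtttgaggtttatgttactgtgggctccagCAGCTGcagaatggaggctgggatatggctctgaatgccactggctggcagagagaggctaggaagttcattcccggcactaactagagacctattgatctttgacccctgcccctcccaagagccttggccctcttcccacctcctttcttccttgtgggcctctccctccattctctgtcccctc
Gchfr: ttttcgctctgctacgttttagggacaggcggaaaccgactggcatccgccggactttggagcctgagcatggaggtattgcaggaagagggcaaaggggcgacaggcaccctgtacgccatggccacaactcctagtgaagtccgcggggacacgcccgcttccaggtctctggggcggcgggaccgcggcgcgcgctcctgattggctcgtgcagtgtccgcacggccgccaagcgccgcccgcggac
The window of Ppp1r14d held 2 E-boxes, that of Rab6b 1 and that of Gchfr 0. An E-box stood in 66.2% of 32851 promoter windows of the same length. The GC box GGGCGG, searched on both strands, stood 2 times in the window of Gchfr, 1 time in that of Rab6b and 0 times in that of Ppp1r14d, and in 32.7% of all windows. None of the 3 windows held TATAAA on either strand, which stood in 12.4% of all windows. The share of G and C was 80.8% for Rab6b, 66.4% for Gchfr and 54% for Ppp1r14d.

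One WT array stood apart from the other 5 arrays. Among 12711 genes with a mean scaled intensity of at least 100, WT array 3 differed by over 2-fold from each of the other arrays in 16.9% to 18.8% of genes. The 3 pairs of KO arrays differed in 7.64% to 14.2% of genes, and WT arrays 1 and 2 in 8.47%. The closest pairs joined the genotypes, at 4.02% for KO array 1 with WT array 2 and 4.52% for KO array 3 with WT array 2. WT array 3 lay over 2-fold outside all other arrays in 653 genes, 331 of them above and 322 below, against 24 to 129 genes for each other array. Values without this array are given beside many of the results, and a result without such a value may also move. The plot of list medians shows them for every list but the sex chromosome genes. By Xist and the Y-linked gene Eif2s3y, KO array 1 and WT array 1 were the male-like arrays, 1 of 3 in each genotype. Eif2s3y stood at 3770, 20.8 and 48.8 on KO arrays, against 4465, 56.9 and 2.78 on WT arrays. The muscle identity of the samples was clear, with Acta1, the skeletal actin, at 264354 to 344893 on KO arrays and 331897 to 400136 on WT arrays. The neonatal myosin Myh8 stood at 287891 to 436404 on KO arrays and 407393 to 471754 on WT arrays.

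**Figure D1:**
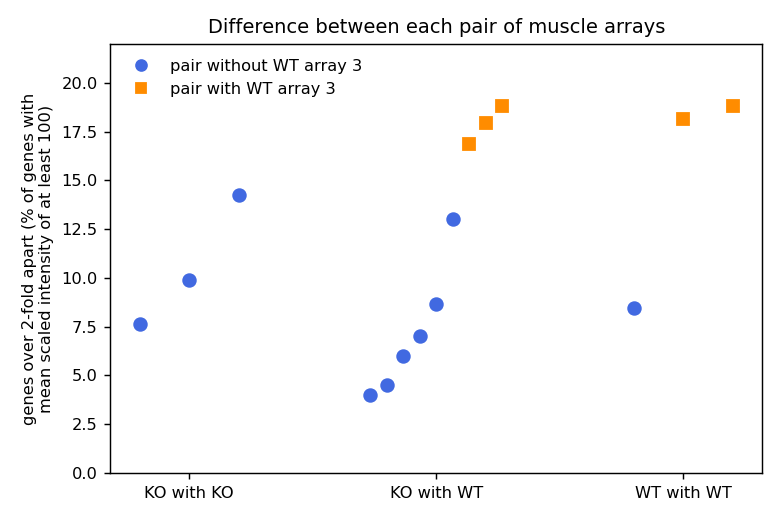
Each point is a pair of muscle arrays, and the vertical axis is the percentage of 12711 genes with a mean scaled intensity of at least 100 that differed by over 2-fold between the 2 arrays. The 5 pairs with WT array 3 (squares) lie between 16.9% and 18.8%, and the other pairs (circles) between 4.02% and 14.2%.

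Celf1 was lower on every KO array. Its probe A_51_P204845 stood at 785, 430 and 498 on the KO arrays, against 3709, 4313 and 3351 on the WT arrays. The highest KO array lay well below the lowest WT array. The log2 fold change was -2.77 ± 0.30, a 6.83-fold lower level, with an adjusted p of 0.312 in limma. Without WT array 3 it was -2.86. Both other probes were lower on every KO array as well, at 6.43% and 13.6% of the WT level. Where these probes lie relative to the inserted vector was not examined.

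Rab6b was close to uniform within each genotype. It stood at 945, 839 and 941 on KO arrays, against 165, 155 and 132 on WT arrays, and the groups were far from overlapping. The log2 fold change was 2.60 ± 0.22, a 6.05-fold higher level with an adjusted p of 0.215 in limma, and it was 2.50 without WT array 3. It was the gene that passed when 50 was added to every intensity (log2 fold change 2.24, adjusted p = 0.0249 in limma) and when only genes above the median level were tested (2.60, adjusted p = 0.0249).

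Ppp1r14d stood at 185, 42.8 and 97.1 on KO arrays, against 3.55, 2.55 and 2.96 on WT arrays. Its WT values lay at the lowest intensities of the arrays, so its log2 fold change of 4.94 ± 0.52 is not exact and was 1.36 with 50 added to every intensity. Gchfr stood at 910, 2576 and 881 on KO arrays, against 180, 87.8 and 124 on WT arrays. KO array 2 was the highest, and the lowest KO array was still above all WT arrays (log2 fold change 3.35 ± 0.50, 10.2-fold higher). Without WT array 3 the values were 4.93 for Ppp1r14d and 3.34 for Gchfr.

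Gchfr and Ppp1r14d lie close together on chromosome 2, the chromosome of Celf1. Chst14, Ino80 and Oip5os1 near them also stood apart between genotypes, each with an unadjusted p under 0.05 in limma. How many measured genes of this stretch overlapped was not counted, and 3.95% of all genes did not overlap. Whether such genes are denser here than elsewhere was not tested. In the order of measured genes along the chromosome, Chst14, Gchfr, Ppp1r14d, Ino80 and Oip5os1 lay 212, 217, 221, 228 and 231 genes past Celf1. Chst14, a sulfotransferase of dermatan sulfate synthesis, stood at 1596, 1321 and 951 on KO arrays, against 640, 813 and 453 on WT arrays (log2 fold change 1.03 ± 0.33, and 0.81 without WT array 3). Ino80, the ATPase of a chromatin remodelling complex, stood at 270, 222 and 358 on KO arrays, against 400, 436 and 532 on WT arrays (-0.70 ± 0.27). A second probe of Ino80 stood at -0.14 and overlapped between genotypes. The noncoding gene Oip5os1, chosen after its values were seen, was also lower on all KO arrays, at -0.84 ± 0.27. Among the 20 measured genes nearest Celf1, 10 on each side, the median log2 fold change was -0.01, and 1 did not overlap. That gene was Agbl2, a cytosolic carboxypeptidase, at 28.6, 36.6 and 30.5 on KO arrays against 22.3, 28.3 and 13.8 on WT arrays. On chromosome 2 as a whole, 87 of 1807 genes did not overlap (4.81%), against 2.70% on chromosome 3 and 5.93% on chromosome 18, the lowest and highest shares.

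**Figure D2:**
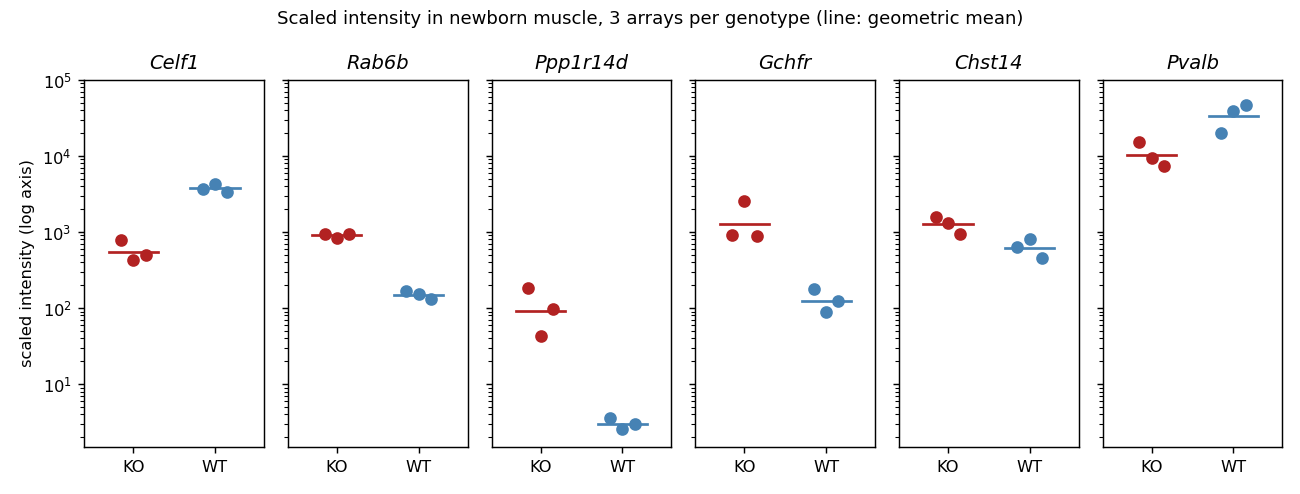
Scaled intensity (log axis) of 6 genes on 3 KO (left) and 3 WT (right) arrays, with a line at the geometric mean of each genotype. Rab6b, Ppp1r14d, Gchfr and Chst14 are higher and Celf1 and Pvalb lower on all KO arrays, with 2576 for Gchfr on KO array 2.

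Chemosensory receptor genes (olfactory, vomeronasal, taste) and gene models with provisional symbols were then set aside. After this, 12206 genes with a mean deposited intensity of at least 100 in 1 genotype stayed. Of these, 219 (1.79%) were higher and 161 (1.32%) lower on all KO arrays. This balance rests on the scaling, with 118 higher and 282 lower under median scaling and 428 higher and 31 lower with no scaling. The 15 of each direction with the smallest p are shown by array in the heatmap of separating genes. Those higher in KO included Vdr, the vitamin D receptor, at 134, 248 and 99.0 on KO arrays, against 9.03, 7.42 and 45.8 on WT arrays. Its log2 fold change was 3.35 ± 0.74, and 4.18 without WT array 3, which had the highest WT value. With 50 added to every intensity it was 1.48. Smpd3, a neutral sphingomyelinase, stood at 503, 392 and 333 on KO arrays, against 205, 89.2 and 64.2 on WT arrays (1.93 ± 0.45, and 1.58 without WT array 3). The values of Slc17a9, the vesicular nucleotide transporter, lay close together within each genotype. They were 154, 151 and 177 on KO arrays, against 82.2, 87.9 and 106 on WT arrays (0.81 ± 0.23). Mid1, an X-linked ubiquitin ligase of microtubules, stood at 946, 202 and 1028 on KO arrays, against 119, 103 and 70.2 on WT arrays (2.61 ± 0.65), and 1 of its 3 probes overlapped, at -0.25. Prg4, the joint lubricant lubricin, stood at 132, 1531 and 357 on KO arrays, against 59.5, 106 and 17.2 on WT arrays (3.13 ± 1.01). Leaving out WT array 3 brought Prg4 to 2.39, leaving out KO array 2 to 2.19, and leaving out KO array 1 to 3.96. Its second probe lay near the lowest intensities and overlapped, and the mean of both probes gave 1.34. Zfp101, a zinc finger gene, stood at 0.91 ± 0.28, and the pseudogene Znf41-ps at 1.25 ± 0.38 (0.86 without WT array 3).

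The remaining members of this group were Mmp13, Alpl, Ibsp and Mmp9, genes of bone and matrix turnover, and they are described with the cartilage and bone genes. KO array 2 was much lower than the other KO arrays in each of these 4.

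Among the 15 lower genes of this set, Pvalb had the smallest p after Celf1. It encodes parvalbumin, the calcium buffer of fast muscle fibres. Pvalb stood at 15044, 9466 and 7349 on KO arrays, against 20136, 39098 and 46775 on WT arrays. The log2 fold change was -1.71 ± 0.42 and was -1.47 without WT array 3; a second probe gave -1.63 and did not overlap either. Rbp7, a retinoid-binding protein, stood at 2135, 2647 and 2466 on KO arrays, against 7969, 3928 and 5944 on WT arrays (-1.25 ± 0.31). Its KO values were close together and its WT values spread over 2-fold. Tmem125, a membrane protein, stood at 463, 627 and 295 on KO arrays, against 918, 1101 and 1314 on WT arrays (-1.32 ± 0.34).

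Several enzymes were in the lower group. Mthfd2, the mitochondrial folate enzyme, stood at 319, 131 and 194 on KO arrays, against 516, 324 and 524 on WT arrays (-1.15 ± 0.39). Gbe1, the glycogen branching enzyme, stood at 3471, 5520 and 4305 on KO arrays, against 8317, 6762 and 6028 on WT arrays (-0.68 ± 0.27). A second probe of Gbe1 stood at -0.75 and overlapped. Galk2, a sugar kinase, stood at -0.83 ± 0.27, but its second probe overlapped at -0.15. Mapkapk3, a kinase downstream of p38, was even within both genotypes, at 1675, 1725 and 1625 on KO arrays against 2212, 2635 and 2517 on WT arrays (-0.55 ± 0.21). Ankrd23, a titin-associated ankyrin repeat protein, stood at 2374, 2461 and 2977 on KO arrays, against 3137, 6241 and 15001 on WT arrays. Its log2 fold change of -1.36 ± 0.55 was -0.77 without WT array 3. Sorl1, a sorting receptor, stood at -1.08 ± 0.43, the transporter gene Mfsd4b1 at -2.02 ± 0.58 and the kinase-like gene Dipk1b at -0.93 ± 0.28. Mfsd4b1 was dim, at 13.3, 42.5 and 24.4 on KO arrays against 56.2, 189 and 87.2 on WT arrays. With 50 added to every intensity, Mfsd4b1 stood at -1.08. Lbh, a transcription cofactor, stood at -0.96 ± 0.31 and Zfp984, a zinc finger gene, at -0.87 ± 0.34 (-0.61 without WT array 3). Second probes of Ankrd23 (-1.29), Sorl1 (-0.84) and Mapkapk3 (-1.02, near the lowest intensities) overlapped. For Lbh the second probe overlapped at 0.17, and for Zfp984 the second probe was higher on all KO arrays, at 0.77.

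Of the 10 genes with the smallest p, 6 lay near the lowest intensities, with scaled intensities between 1.83 and 16.7. They were Gm8369, Spink5, Sag, Caps2, 6720483E21Rik and Gm15743. Gm8369 was lower in KO (-1.63 ± 0.24) and the other 5 were higher, at 1.09 to 1.69. With 50 added to every intensity, Caps2 stood at -0.03 and Spink5 at -0.01.

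**Figure D3:**
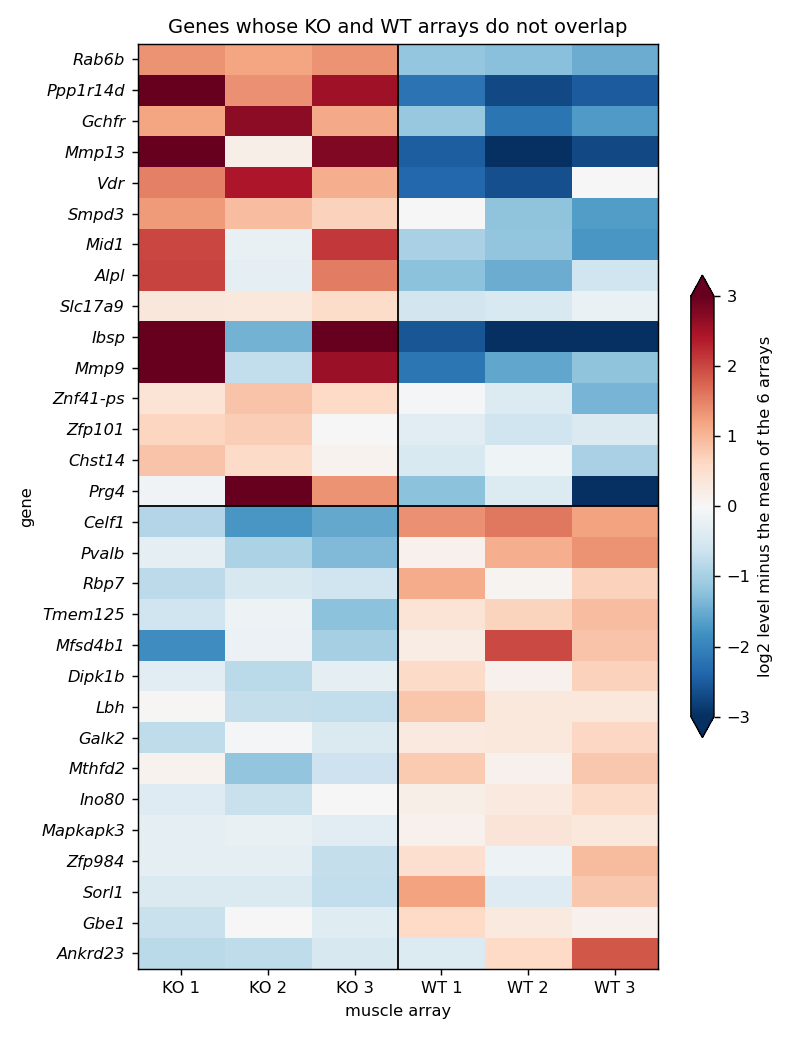
Log2 level of the 15 higher (top) and 15 lower (bottom) genes chosen by p among those whose arrays do not overlap, minus the mean of the 6 arrays, with KO arrays left of WT arrays. Colours are capped at -3 and 3; KO array 2 lies below KO arrays 1 and 3 for Mmp13, Mid1, Alpl, Ibsp and Mmp9.

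Gene lists were then read by the role of their members. In 36 lists, 597 distinct genes were measured, of which 25 did not overlap between genotypes and 0 passed the threshold over all genes (3.95% of all genes did not overlap, and 0% passed). A list score of an array is the mean of its members' log2 levels relative to each gene's mean over the 6 arrays. In 0 of the 36 lists did the scores of the KO arrays all lie on 1 side of the WT arrays. Of all genes, 46.6% were above 0 and 53.4% below 0, the shares beside which counts of list members are to be read. The lists and their members were chosen with earlier results of these data known, so these counts are descriptions and not tests.

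Among other CELF genes, Celf2, a close paralog of Celf1, stood at 13208, 12284 and 12646 on KO arrays, against 11620, 11416 and 11975 on WT arrays. All KO arrays were higher by a small margin (0.12 ± 0.21), which was below the moderated SE, and its other 3 probes overlapped. The log2 levels of Celf2 itself lay closer together, with standard deviations of 0.053 on KO arrays and 0.035 on WT arrays. Celf3 and Celf5 stood at 0.30 ± 0.34 and 0.48 ± 0.30. Of 17 splicing regulators, 13 were above 0 and the median was 0.21, and 0.03 without WT array 3. Hnrnpl stood at 325, 337 and 275 on KO arrays, against 196, 250 and 255 on WT arrays (0.42 ± 0.24), and was the 1 member that did not overlap. The muscleblind genes Mbnl1 and Mbnl2, splicing factors lost to RNA foci in myotonic dystrophy, stood at -0.14 ± 0.23 and -0.13 ± 0.24. Both were chosen after their values were seen. Of 21 mRNA decay factors the median was -0.05 (0.02 without WT array 3), and 1 member did not overlap. That was Khsrp, which binds AU-rich elements, at 15746, 13004 and 15079 on KO arrays against 19098, 15852 and 20377 on WT arrays (-0.33 ± 0.23).

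Genes that are misspliced in myotonic dystrophy and mRNAs reported as CUGBP1 targets were read by total level. Of 23 genes whose splicing shifts in myotonic dystrophy, 17 were below 0, against 53.4% of all genes, and the median was -0.07, ranging between -0.26 and 0.09 when single arrays were left out. The cardiac troponin Tnnt2, a classical splicing target, stood at 16290, 10083 and 13484 on KO arrays, against 7765, 13715 and 6213 on WT arrays (0.58 ± 0.37), and the groups overlapped. Pkm was the 1 of 23 that did not overlap. Of 13 mRNAs reported as decay or translation targets, 6 were above 0 and 0 stood apart between genotypes. Their median was -0.16, and 0.17 without WT array 3. Ccnd1 (cyclin D1) stood at 0.56 ± 0.37, Hdac1 at 0.48 ± 0.35, the transcription factor Jund at 0.41 ± 0.26 and Cebpb at -0.84 ± 0.56. WT array 3 held the extreme for each, lowest for Ccnd1, Hdac1 and Jund and highest for Cebpb, at 17024 against 3331 to 6772 elsewhere.

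Contractile genes leaned lower in the fast fibre programme. Of 18 fast fibre genes, 17 were below 0 (53.4% of all genes were). Their median was -0.33 (-0.32 without WT array 3 and -0.17 without KO array 2). Scores were -0.39, -0.55 and 0.26 on KO arrays, against -0.20, 0.46 and 0.42 on WT arrays, so KO array 3 lay with WT arrays 2 and 3 and WT array 1 with the KO arrays. Myh4, the fast IIb myosin, followed the same split, at 5214, 4626 and 16388 on KO arrays against 5004, 38217 and 35811 on WT arrays (-1.37 ± 0.89). Tnni2, the fast troponin I, did not overlap, at 422693, 286138 and 424656 on KO arrays against 443411, 434054 and 487197 on WT arrays (-0.29 ± 0.25), though the nearest KO and WT arrays differ by little. Actn3 stood at -0.70 ± 0.47 and Mybpc2 at -0.63 ± 0.37. Of 14 slow fibre genes, 8 were above 0 and the median was 0.05 (-0.21 without WT array 3), with myoglobin, Mb, at -1.01 ± 0.56 and Tnni1 at 0.38 ± 0.38.

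Embryonic and neonatal muscle genes had a median of 0.06, sarcomere scaffold genes -0.02, excitation-contraction coupling genes -0.10, neuromuscular junction genes -0.02 and myogenic factors -0.11. Leaving out single arrays carried each of these medians across 0. The ranges were -0.12 to 0.29 for the embryonic and neonatal list, -0.30 to 0.22 for the sarcomere scaffold list, -0.44 to 0.13 for excitation-contraction coupling, -0.23 to 0.26 for the junction and -0.33 to 0.11 for myogenic factors. In these 5 lists 1 member did not overlap. That was H19, a noncoding RNA of imprinted growth control, at 391071, 294258 and 358368 on KO arrays against 419838, 395078 and 491738 on WT arrays (-0.33 ± 0.24). Myogenin, Myog, stood at 10655, 5566 and 10254 on KO arrays, against 4202, 10060 and 5912 on WT arrays, with clear overlap. The calcium release scaffold Jph2 stood at 331, 324 and 391 on KO arrays, against 954, 783 and 306 on WT arrays (-0.82 ± 0.44). The IGF and imprinted growth list had a median of 0.12 and Igfbp1 within it ranged from 231 to 2613 on KO arrays and 116 to 2327 on WT arrays.

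Glycolysis and oxidative phosphorylation genes had medians below 0. All 19 glycolysis genes were below 0 (53.4% of all genes were), with a median of -0.42 that was -0.28 without WT array 3. Of them, 3 did not overlap (15.8%, against 3.95% of all genes), and Pkm among these overlapped with no scaling. As the list was chosen with earlier results known, the 2 shares are no test. Aldoa, the muscle aldolase, stood at 393741, 324219 and 360454 on KO arrays, against 470435, 426263 and 529771 on WT arrays (-0.40 ± 0.22). Ldha, the lactate dehydrogenase A subunit, stood at 180142, 131040 and 164160 on KO arrays, against 211866, 219678 and 199890 on WT arrays (-0.42 ± 0.23). Pkm, the pyruvate kinase, stood at 27549, 16270 and 25781 on KO arrays, against 28964, 32112 and 41608 on WT arrays (-0.58 ± 0.30). The glucose-trapping hexokinase Hk2 overlapped, at 4928, 2116 and 3389 on KO arrays against 8425, 3720 and 11034 on WT arrays (-1.10 ± 0.50). Scores of the list were -0.01, -0.48 and -0.32 on KO arrays, against 0.15, -0.05 and 0.71 on WT arrays, which overlap through KO array 1 and WT array 2.

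Of 23 oxidative phosphorylation genes, 22 were below 0, with a median of -0.28, which was -0.43 without WT array 3 and -0.12 when WT array 1 was left out. Atp5b, the catalytic subunit of ATP synthase, stood at 157444, 142978 and 163595 on KO arrays, against 197425, 203676 and 183495 on WT arrays (-0.33 ± 0.21), and was the 1 member that did not overlap. Cox7a1, the muscle form of a cytochrome oxidase subunit, stood at 44492, 19714 and 41848 on KO arrays, against 106101, 37566 and 50562 on WT arrays (-0.82 ± 0.49). Its highest value was on WT array 1, the array that also held the most fat marker signal, and the part of fat tissue in this was not tested. Of 20 genes of fatty acid use, 14 were below 0. Their median of -0.13 was 0.03 when WT array 1 was left out and 0.03 with no scaling.

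Stress programmes were dominated by WT array 3. All 18 hypoxia genes were below 0 with a median of -0.80, which was -0.10 without that array. The hypoxia scores were -0.25, -0.30 and -0.74 on KO arrays, against 0.02, -0.63 and 1.90 on WT arrays. The ER oxidase Ero1a stood at 110, 118 and 57.3 on KO arrays, against 141, 105 and 1134 on WT arrays. Egln1, an oxygen sensor of the HIF pathway, was the 1 member that did not overlap, at 195, 166 and 212 on KO arrays against 250, 227 and 563 on WT arrays (-0.74 ± 0.39).

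The atrophy and FoxO genes had a median of -0.40 (0.06 without WT array 3), with 0 members not overlapping. Trim63, the muscle ubiquitin ligase MuRF1, stood at 1416, 3594 and 1872 on KO arrays, against 1377, 3116 and 30551 on WT arrays. Gadd45a stood at 925, 964 and 843 on KO arrays, against 849, 1221 and 11736 on WT arrays. Immediate early genes had a median of -0.28 (0.40 without WT array 3), integrated stress response genes -0.35 (0.02) and circadian clock genes -0.31 (0.11). In each of these 5 lists WT array 3 had the highest score, at 1.00 to 1.90. Clock, a core clock activator, was lower on all KO arrays and nearly even within genotypes, at 477, 460 and 414 on KO arrays against 570, 602 and 643 on WT arrays (-0.43 ± 0.21). Its partner Arntl stood at 397, 693 and 316 on KO arrays, against 661, 797 and 938 on WT arrays (-0.84 ± 0.35). Eif4ebp1, a brake on translation, was lower on all KO arrays, at 19781, 19034 and 16949 against 25130, 22493 and 30168 on WT arrays (-0.47 ± 0.23).

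Interferon response genes stood at the lowest median of the 36 lists, -0.92, with all 22 members below 0, and the median was -0.87 without WT array 3. None of the 22 separated the genotypes. Isg15, a ubiquitin-like antiviral protein, stood at 1274, 2561 and 485 on KO arrays, against 5765, 1664 and 5539 on WT arrays (-1.69 ± 0.73). Rsad2 stood at 351, 781 and 102 on KO arrays, against 805, 617 and 1617 on WT arrays (-1.61 ± 0.76). Scores were -0.74, 0.88 and -1.54 on KO arrays, against 0.92, -0.18 and 0.67 on WT arrays, so KO array 2 was as high as the highest WT arrays. The median was -0.39 without KO array 3 and -1.57 without KO array 2.

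**Figure D4:**
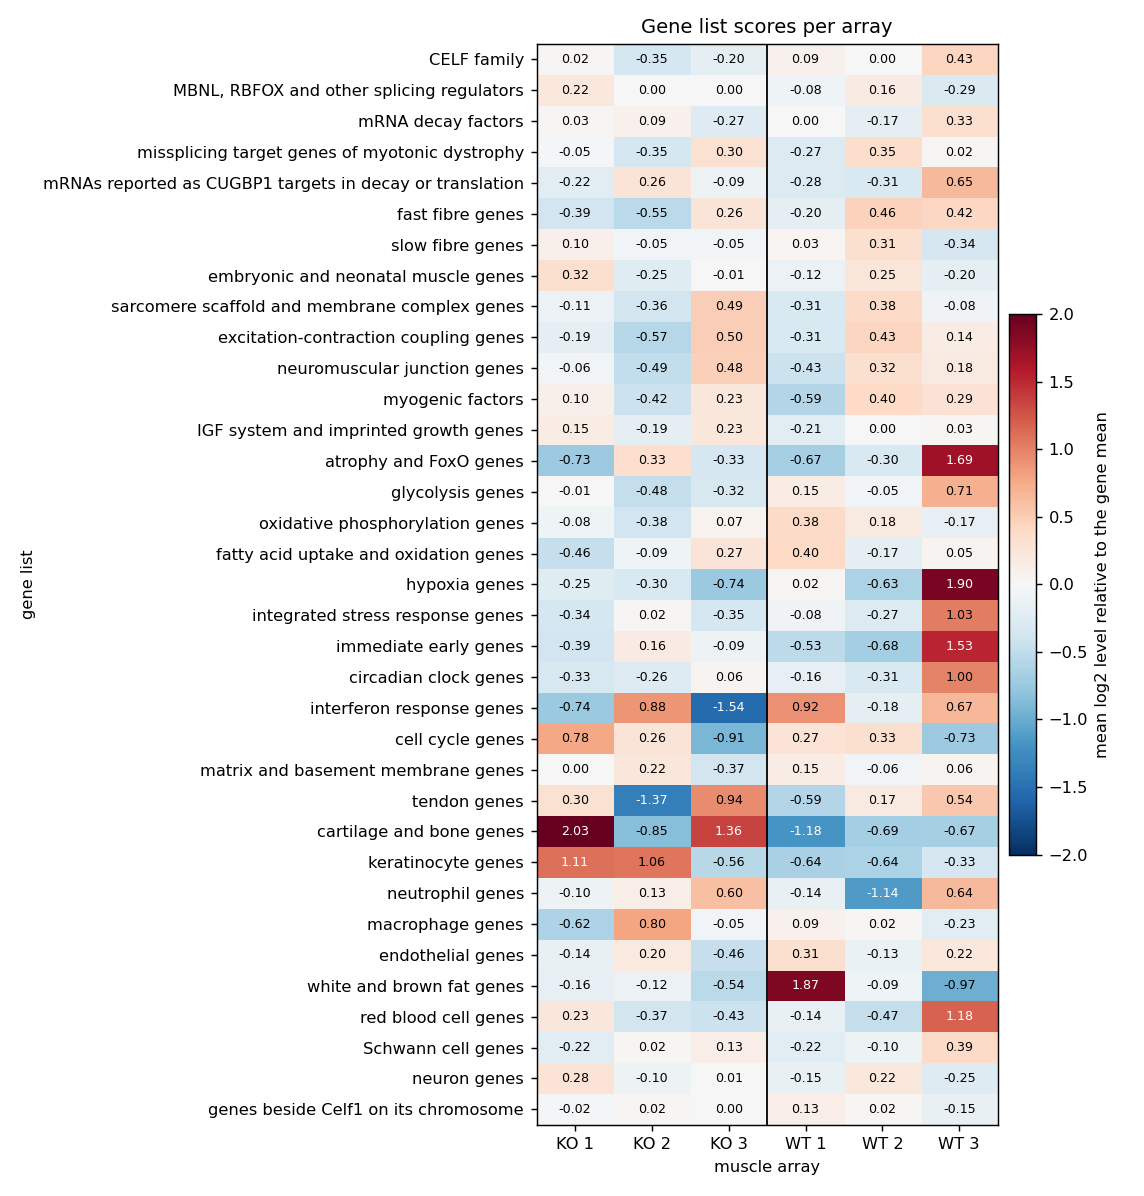
Score of each gene list (rows, the sex chromosome genes not drawn, Celf1 included in the CELF family) on each muscle array (columns, KO left of the line and WT right of it), where the score is the mean log2 level of the members relative to each gene's mean over the 6 arrays. The highest hypoxia score is 1.90 on WT array 3 and the highest cartilage and bone score is 2.03 on KO array 1.

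Proliferation genes had a median of -0.01 (-0.43 to 0.56 with single arrays left out) with 14 of 29 above 0, and their scores were -0.91 on KO array 3 and -0.73 on WT array 3, against 0.26 to 0.78 on the other arrays. The replication factor Mcm5 stood at 1869, 860 and 936 on KO arrays, against 1153, 1203 and 238 on WT arrays.

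Markers of other tissues differed between arrays, and in a whole muscle sample fewer cells of a type and less RNA per cell cannot be told apart. Cartilage and bone genes had the highest median of the 36 lists, 1.06, with 17 of 18 above 0 (46.6% of all genes were). Of the 18, 5 were higher on all KO arrays (27.8% of the list, against 1.86% of all genes). The list was chosen with earlier results of these data known, so these shares are no test of it. Ibsp, Mmp13 and Alpl were also among the higher genes chosen by p above. The scores were 2.03, -0.85 and 1.36 on KO arrays, against -1.18, -0.69 and -0.67 on WT arrays, so KO array 2 lay within the WT range. Leaving out WT array 3 gave a median of 1.17, leaving out KO array 2 one of 1.75, and leaving out WT array 1 one of 0.62. Summed deposited intensities of the list, which are not scaled, were 1801 to 11603 on KO arrays and 1451 to 3532 on WT arrays.

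Ibsp, bone sialoprotein, stood at 4209, 31.6 and 2412 on KO arrays, against 14.3, 8.83 and 9.12 on WT arrays (6.03 ± 1.74). Its second probe did not overlap either, at 5.14. Without KO array 2 the log2 fold change of Ibsp was 8.25, and it was then the 1 gene that passed in limma (adjusted p = 0.0259). Mmp13, the collagenase of hypertrophic cartilage, stood at 701, 21.7 and 131 on KO arrays, against 3.46, 2.42 and 2.92 on WT arrays (5.44 ± 1.14), with WT values at the lowest intensities. Alpl, the alkaline phosphatase of mineralising cells, stood at 650, 130 and 458 on KO arrays, against 67.8, 56.8 and 105 on WT arrays (2.19 ± 0.61). Mmp9, listed with neutrophil genes and also made by osteoclasts, stood at 251, 17.9 and 180 on KO arrays, against 6.55 to 12.9 on WT arrays (3.30 ± 0.97). With 50 added to every intensity the log2 fold changes were 3.87 for Ibsp, 1.89 for Mmp13, 1.64 for Alpl and 1.37 for Mmp9. Col9a2, a cartilage collagen chain, was even on KO arrays, at 522, 450 and 512, against 215, 367 and 333 on WT arrays (0.73 ± 0.28). Col9a3 was the remaining member of the list that did not overlap. It stood at 17.8, 25.3 and 13.6 on KO arrays, against 3.59, 10.7 and 3.76 on WT arrays (1.80 ± 0.49), with WT values near the lowest intensities. Col2a1, the main cartilage collagen, had KO arrays on both sides of the WT arrays. It stood at 2027, 57.7 and 2903 on KO arrays against 471, 1106 and 744 on WT arrays (-0.06 ± 1.43). Ibsp, Mmp13, Alpl and Mmp9 were highest on KO arrays 1 and 3, and so were the cartilage collagens Col2a1 and Col11a1. Col11a1 stood at 1095, 358 and 1455 on KO arrays, against 449, 824 and 411 on WT arrays. Col9a3 was instead highest on KO array 2. The part of attached skeletal tissue in these values was not tested.

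Keratinocyte genes had a median of 0.77 with 17 of 21 above 0 (46.6% of all genes were). Of the 21, 1 did not overlap (4.76%, against 3.95% of all genes). The scores were 1.11, 1.06 and -0.56 on KO arrays, against -0.64, -0.64 and -0.33 on WT arrays, so KO array 3 lay with the WT arrays. The median was 1.09 without WT array 3, and 0.49 when WT array 1 was left out. Krt5, a keratin of the basal skin layer, stood at 959, 1254 and 81.8 on KO arrays, against 79.2, 87.2 and 115 on WT arrays. Krt14, its partner, did not overlap, at 148, 422 and 66.7 on KO arrays against 57.5, 56.2 and 64.8 on WT arrays (1.44 ± 0.63). Summed deposited intensities of the list, which are not scaled, were 6235 to 9487 on KO arrays and 4001 to 5433 on WT arrays. Much of the sums on KO array 3 and on the WT arrays was Trp63. Its deposited intensities were 3654, 3179 and 4843 on KO arrays, against 3211, 3523 and 3936 on WT arrays (-0.05 ± 0.28). The part of skin in these values was not tested.

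Fat genes had scores of -0.16, -0.12 and -0.54 on KO arrays, against 1.87, -0.09 and -0.97 on WT arrays, so WT array 1 was the highest. Ucp1, the uncoupling protein of brown fat, stood at 19940, 433 and 264 on KO arrays, against 169715, 9824 and 766 on WT arrays. Its range within each genotype was wider than its difference between them (-3.04 ± 2.31). Summed deposited intensities of the fat list, which are not scaled, were 195317 to 416226 on KO arrays and 165159 to 794858 on WT arrays.

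Red blood cell genes had a median of -0.39 (-0.05 without WT array 3, which had the highest score, 1.18). Summed deposited intensities of the list, which are not scaled, were 118756 to 405243 on KO arrays and 259537 to 829219 on WT arrays. The part of blood in these values was not tested. The beta globin Hbb-b1 stood at 155938, 94607 and 35066 on KO arrays, against 129210, 78275 and 371473 on WT arrays. Klf1, the erythroid transcription factor, was the 1 of 15 that did not overlap, at 14.8, 6.4 and 15.2 on KO arrays against 18.1, 26.8 and 45.3 on WT arrays (-1.31 ± 0.48). Tendon genes had a median of -0.23 that was 0.65 without KO array 2, which held the lowest score, -1.37. The medians were 0.32 for neutrophil genes (0.83 without WT array 3 and -0.22 without WT array 2), 0.05 for macrophage genes, -0.23 for endothelial genes, 0.06 for Schwann cell genes, 0.18 for neuron genes and -0.12 for matrix genes. Leaving out single arrays gave ranges of -0.32 to 0.38 for macrophage, -0.39 to -0.05 for endothelial, -0.14 to 0.23 for Schwann cell, -0.05 to 0.36 for neuron and -0.23 to 0.02 for matrix genes. In the neutrophil list 2 members stood apart, Mmp9 and the protease gene Prtn3 (0.92 ± 0.36, near the lowest intensities), and in the other 5 lists 0 did.

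**Figure D5:**
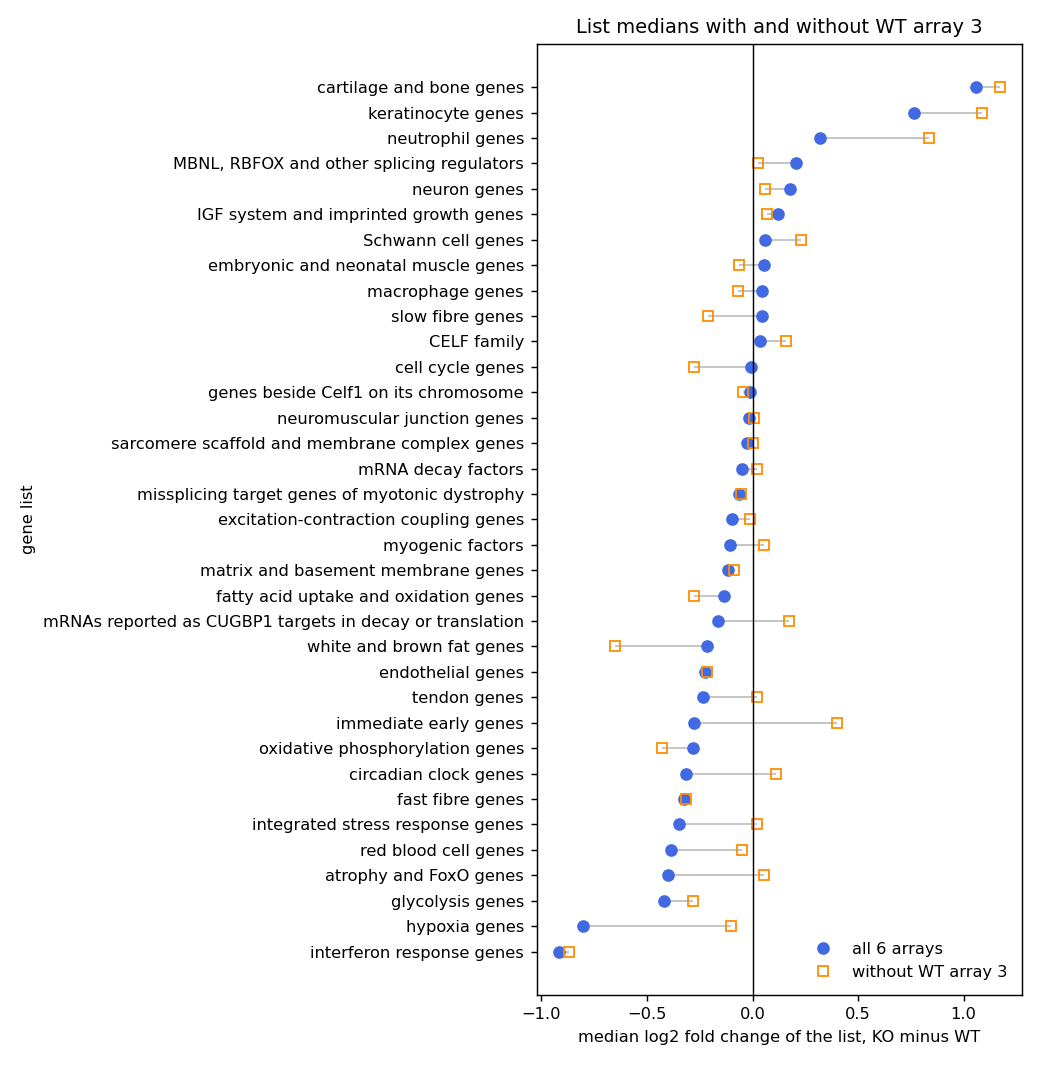
Median log2 fold change, KO minus WT, of each gene list, the sex chromosome genes not drawn, with all 6 arrays (filled circles) and without WT array 3 (open squares). The hypoxia median is -0.80 with all arrays and -0.10 without WT array 3, the immediate early median -0.28 and 0.40, and the interferon median -0.92 and -0.87.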

How the data were processed

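The deposited table held 55681 probes with intensity values on a linear scale, which the authors made with Agilent Feature Extraction, per the submitters' processing notes; its version and any scaling are not given in the sources used here, and detection flags were not used. Of the probes, 30626 carried 1 gene symbol in the platform annotation, 0 several and 25055 none listed; 30332 matched a gene of GRCm38.p6, used for names and gene order only. Log2 intensities minus each array's 75th percentile over named probes (883 to 1224) were the levels. Each of 21893 genes was read at its brightest probe, by the mean of the 14 arrays, and 6807 genes had at least 2 probes. Blank values were left out of the fit in 31 genes.

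KO was compared with WT on the 6 muscle arrays with limma 3.58.1 in R 4.3.3 (lmFit and eBayes, 2-sided, Benjamini-Hochberg over all genes, threshold 0.05). A gene did not overlap when all arrays of 1 genotype lay above all of the other. On simulated data for this comparison (21862 genes), the test called 0 unchanged genes and recovered 20 of 100 genes changed by 2 on the log2 scale and 0 of 100 changed by 1. In the simulation each gene varied independently, with no deviation shared by many genes of 1 array. WT array 3 showed such a deviation, so these counts may not hold for the real arrays. With 3 arrays a genotype, array number limits the precision.

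Named genes were Celf1, the 10 with the smallest p, 15 non-overlapping genes in each direction with the smallest p (mean intensity at least 100 in the higher genotype, no olfactory, vomeronasal or taste receptor genes and no predicted genes), the 4 members of each list with the smallest p and its non-overlapping members at that level, genes beside Celf1, sex genes, muscle markers and abundant members of lists that differ between arrays. Other genes are marked. The members and lists were chosen with earlier results of these data known. Alternatives changed the scaling, the probe choice, the low-level filter, the limma options and the arrays used.

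Same-numbered KO and WT arrays deviated from their genotype means with correlations of 0.17, -0.08 and 0.20 over genes, so the numbers were not taken as pairs.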

Additional observations from a re-analysis of the deposited data

How the results depend on the processing

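Celf1 kept its direction under all alternatives, at -3.20 to -2.59. The count of genes past the threshold was 0 under 9 of the 11 alternatives that kept all arrays, 1 with 50 added to every intensity and 1 with only genes above the median level (Rab6b in both), and 0 to 1 with arrays left out in turn. With array number as a replicate block the count was 0, with 529 genes at unadjusted p under 0.05 and an adjusted p of 0.989 for Celf1; the pairing was not borne out by the correlations. Non-overlapping genes higher in KO numbered 407, and 237 with 50 added, 759 with no scaling and 173 above the median level. Those lower in KO numbered 457, and 418, 647 and 159 in the same settings. With arrays left out in turn they numbered 1008 to 1734 and 872 to 3275, where fewer arrays make separation easier by construction. Median scaling gave 290 and 580. Among the 12206 brighter genes described above, those lower in KO fell from 161 to 31 with no scaling. Yet over all genes their count rose from 457 to 647. The lowest intensity of each KO array (2.04 to 2.38) lay under that of each WT array (2.39 to 2.74). Genes at the lowest intensities can therefore count as lower in KO without scaling, and how many of the 647 were such genes was not counted. With no scaling all log2 fold changes shift by 0.16, so list medians between -0.16 and 0 change sign, and genes beside Celf1 had a median of 0.15. Leaving out arrays gave medians of -0.055 to 0.36 for neuron genes, -1.23 to 1.02 for sex chromosome genes and -0.21 to 0.15 for slow fibre genes. With 50 added, Caps2 turned to -0.030 and Spink5 to -0.012, where the added constant exceeds their intensities. The same setting brought Ppp1r14d to 1.36, Mmp13 to 1.89, Ibsp to 3.87, Vdr to 1.48, Mmp9 to 1.37 and Prg4 to 2.18, all still above 0. Depth limits genes near the lowest intensities, with 2126 genes within 2-fold of it on all 6 arrays.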
